A study of Mus musculus with 12 samples.

Results

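The RUNX transcription factor genes Runx1, Runx2 and Runx3 and their common partner gene Cbfb were followed in RNA-seq data from newborn mouse calvaria. The members were the genes of these names, taken as the sum of the deposited values over their RefSeq transcripts, and each of those transcripts on its own. They were 4 of 23715 genes and 17 of 30411 transcripts, with 4 transcripts of Runx1, 8 of Runx2, 1 of Runx3 and 4 of Cbfb. The values were FPKM, fragment counts corrected for transcript length and for sequencing depth.

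Libraries were made from individual C57BL/6 mice of 2 crosses, with 3 mice in each of 4 groups. P-KO mice lacked Med23 in the mesenchymal stem cell lineage: they carried floxed Med23 alleles, with loxP sites around exons 5 to 7, and the Prx1-Cre transgene. P-Ctrl mice were their control littermates, given as wild type in the sample labels. Figure captions of the study give the control mice of this cross as Med23fl/fl. R-Het mice were heterozygous for a Runx2 null allele (Runx2+/-), and R-WT mice were wild type. Tissue was calvaria of newborns according to the labels, and parietal bone on postnatal day 2 according to the methods of the study. MED23 is a subunit of Mediator, the complex that links transcription factors to RNA polymerase II. Prx1-Cre is active in limb bud and part of the calvarial mesenchyme, so that blood, vessel, osteoclast and other cells in the tissue kept Med23. The part of Runx2 deleted in R-Het mice is not given in the sources used here.

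RUNX proteins bind DNA through the conserved Runt domain, and CBFB, which does not bind DNA itself, strengthens that binding and protects RUNX proteins from degradation. RUNX2 is required for osteoblast differentiation, and loss of a single Runx2 copy causes cleidocranial dysplasia, in which the clavicles and the calvarial bones are underdeveloped. RUNX1 is best known for blood formation and is also present in skeletal progenitors, whereas RUNX3 acts in T cells, sensory neurons and cartilage. Each RUNX gene is transcribed from a distal and a proximal promoter, which gives proteins with different amino-terminal ends. Runx2 transcripts from the distal promoter are the ones most tied to osteoblasts.

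The coding starts of the promoter-specific transcripts are shown because they define the isoforms whose values are given below. They were read from the GENCODE transcripts (GRCm38) matched to the RefSeq entries, with the start codon in capitals, followed to 45 bases in all.
Runx1 distal, chr16:92825602-92825646, minus strand: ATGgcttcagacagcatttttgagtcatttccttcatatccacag
Runx2 distal, chr17:44814182-44814226, minus strand: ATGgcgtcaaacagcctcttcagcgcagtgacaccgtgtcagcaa
Runx3, chr4:135121106-135121150, plus strand: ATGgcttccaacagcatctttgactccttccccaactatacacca
Runx1 proximal, chr16:92695709-92695753, minus strand: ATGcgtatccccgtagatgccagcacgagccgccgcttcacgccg
Runx2 proximal, chr17:44735590-44735634, minus strand: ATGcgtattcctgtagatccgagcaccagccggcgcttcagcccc

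The proximal starts of Runx1 and Runx2 were identical at 36 of 45 positions. The distal starts of the same genes matched at 26 of 45 positions, and Runx1 distal matched Runx3 at 32. The measured Runx3 transcript, NM_019732, carried a start of the distal kind, and no second Runx3 transcript was listed. Between the 2 starts of a gene, matches fell to 12 of 45 for Runx1 and 10 of 45 for Runx2. The Runx2 coding sequences from both promoters shared their last 1527 bases, and differed in 57 bases before that point in the distal form (1584 coding bases) and 15 in the proximal form (1542 coding bases).

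A window from 250 bases before to 50 bases after each listed start (GRCm38.p6, several for some genes) was searched on both strands. The search was for the core RUNX motif, ACCACA or TGTGGT. Of 32851 such windows, 5506 (16.8%) held the motif, and 7 (0.0213%) held it in the tandem arrangement ACCACANNACCACA. The distal windows of Runx1, Runx2 and Runx3 were 3 of those 7. The stretches are printed with the motifs in capitals, because they are shared by all family members.
Runx1, chr16:92826027-92826052, minus strand: taaacaACCACAgaACCACAagttgg
Runx2, chr17:44814585-44814610, minus strand: caaacaACCACAgaACCACAagtgcg
Runx3, chr4:135120505-135120530, plus strand: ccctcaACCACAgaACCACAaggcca
The tandem began 29 bases after the start used for the window in Runx1 (chr16:92826075) and 24 bases after it in Runx2 (chr17:44814628). In Runx3 it began 134 bases before that start. The distal transcripts matched in GENCODE begin farther upstream in Runx1 and Runx2, at chr16:92826149 and chr17:44814797. The proximal windows of Runx1 and Runx3 and the window of Cbfb held no match, and no proximal window of Runx2 was in the table. These matches are descriptions of the sequence, and binding was not measured.

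The files held no read counts. A rough depth of 7790000 to 11710000 fragments per mouse was read from the smallest FPKM steps of genes with a single transcript of at least 2 kb. At that depth NM_022309 of Cbfb rested on roughly 862 to 1748 fragments per mouse, the Runx3 transcript on 81 to 158, and NM_001111023 of Runx1 on 27 to 97. Xist, expressed from the inactive X chromosome of females, was at 37.8 to 49.1 FPKM in P-Ctrl 2, P-Ctrl 3 and R-WT 1, and at most 0.0663 FPKM in the other 9 mice, among them all P-KO and R-Het mice. The part of sex in the values was not tested. Neither sequencing batches nor dates are given in the labels. In bulk tissue, fewer cells of a type and less RNA per cell cannot be told apart.

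The targeted genes were examined first. Med23 was at 5.99, 5.42 and 4.54 FPKM in P-Ctrl mice 1 to 3 and at 4.89, 5.74 and 5.28 FPKM in P-KO mice, and the groups overlapped (log2 fold change 0.0012 ± 0.12 SE, adjusted p = 0.997, limma). Runx2 was not lower in R-Het mice either, as described next. The deposited values cover whole transcripts and do not separate deleted from intact exons or alleles, so they check neither genotype, and the groups below are the groups as labelled.

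Levels per transcript length had the same order in all 12 mice. Cbfb was highest, at 93.4 to 134 FPKM, followed by Runx2 at 23.7 to 38.0 FPKM, Runx1 at 4.24 to 7.57 FPKM and Runx3 at 2.27 to 3.62 FPKM. None of these ranges overlapped. Runx2 made up 72.5% to 81.7% of the summed FPKM of the RUNX genes in each mouse.

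**Figure D1:**
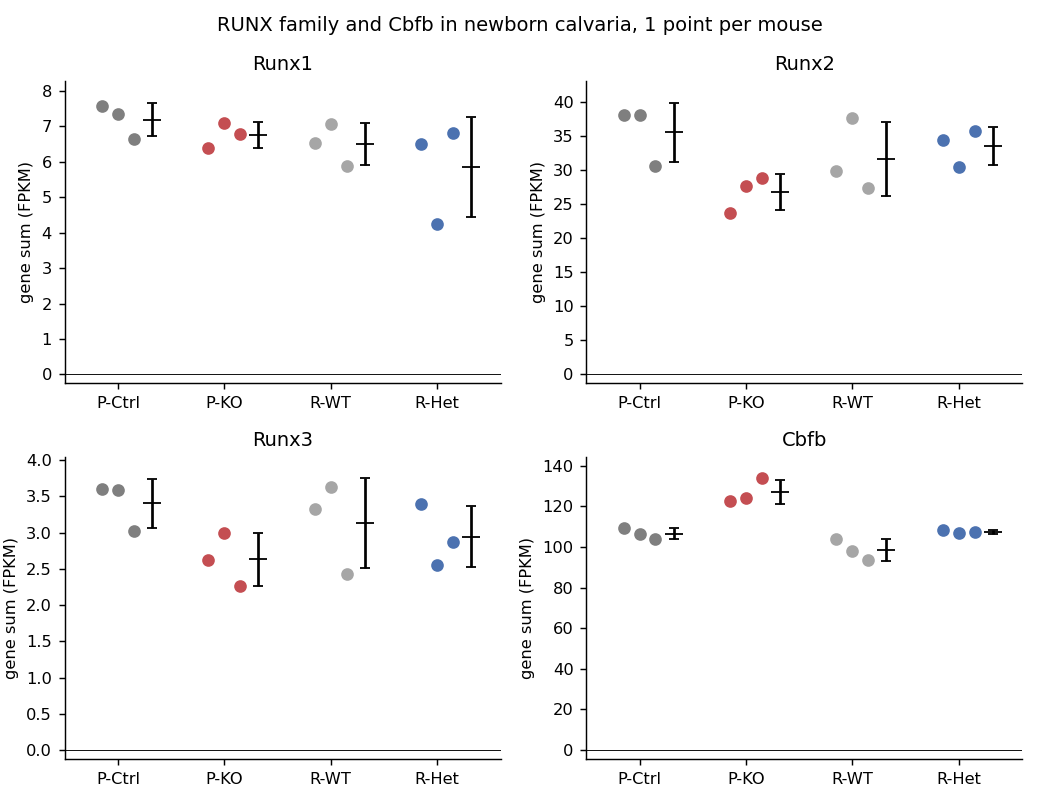
Gene sums of Runx1, Runx2, Runx3 and Cbfb in FPKM (y axes, linear, from 0) in each of the 12 mice by labelled group (x axes); each point is a mouse, and the black bars give the mean ± SD of 3 mice. P-KO mice lay below P-Ctrl mice for Runx2 (23.7 to 28.7 against 30.5 to 38.0) and Runx3, and above them for Cbfb (123 to 134 against 104 to 109), while R-Het and R-WT mice overlapped for each RUNX gene.

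The first comparison asked whether loss of Med23 in the mesenchymal lineage came with a different level of the RUNX genes or of Cbfb. Runx2 FPKM was 38.0, 38.0 and 30.5 in P-Ctrl mice 1 to 3 and 23.7, 27.7 and 28.7 in P-KO mice. All P-KO mice were below all P-Ctrl mice, with means of 26.7 ± 2.64 and 35.5 ± 4.31 FPKM (SD, n = 3 each). The log2 fold change was -0.40 ± 0.12 (SE; 95% confidence interval -0.67 to -0.12). It did not pass the test across 13059 genes (adjusted p = 0.13, limma; unadjusted p = 0.011). The net difference between the means was -8.81 FPKM. Of the entries that are non-coding in RefSeq, NR_073392 differed by -5.08 FPKM and NR_073425 by -0.91 FPKM. NR_073392 rested on roughly 24 to 214 fragments per mouse. Coding entries differed in both directions and partly cancelled. NM_001271630, NM_009820, NM_001271627 and NM_001145920 differed by -3.15, -1.67, -1.43 and -0.12 FPKM. NM_001146038 and NM_001271631 differed by 3.15 and 0.39 FPKM. Without both non-coding entries the Runx2 sums of P-KO and P-Ctrl mice overlapped.

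Runx3 FPKM was 3.61, 3.59 and 3.02 in P-Ctrl mice and 2.63, 3.002 and 2.27 in P-KO mice. These groups also did not overlap, although the closest values differed by little, and the log2 fold change of -0.28 ± 0.12 (SE) missed the threshold (adjusted p = 0.25, limma). Runx1 FPKM was 7.57, 7.34 and 6.65 against 6.39, 7.10 and 6.79, with overlap and a log2 fold change of -0.08 ± 0.09 (SE; adjusted p = 0.67, limma).

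Cbfb differed in the other direction. Its FPKM was 109, 106 and 104 in P-Ctrl mice and 123, 124 and 134 in P-KO mice, so that all P-KO mice were above all P-Ctrl mice. The log2 fold change was 0.25 ± 0.08 (SE; 95% confidence interval 0.07 to 0.42), which did not pass (adjusted p = 0.13, limma). It was 0.15 once all mice had been brought to equal FPKM totals (rescaled values).

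None of the 4 genes passed at an adjusted p of 0.05, in either direction. Of the 13059 genes tested, 0.559% were called lower in P-KO mice (73 genes) and 1.01% higher (132 genes). With rescaled values the calls were 65 lower and 41 higher. All P-KO mice were below all P-Ctrl mice for 2 of the 4 members, against 7.68% of all genes, and above them for 1 of 4, against 19.6% of all genes. The median log2 fold change over all genes was 0.06.

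In the second comparison, R-Het against R-WT mice, the question was the level of Runx2 itself and of its relatives when a Runx2 copy is null. Runx2 FPKM was 29.8, 37.7 and 27.3 in R-WT mice 1 to 3 and 34.3, 30.4 and 35.7 in R-Het mice. The R-Het mice lay within the range of the R-WT mice, with means of 33.5 ± 2.76 and 31.6 ± 5.39 FPKM (SD, n = 3 each). The log2 fold change was 0.09 ± 0.13 (SE; 95% confidence interval -0.21 to 0.39; adjusted p = 0.80, limma). Its sign turned without R-WT 3, to -0.0032.

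Runx1 FPKM was 6.52, 7.06 and 5.88 in R-WT mice and 6.50, 4.24 and 6.82 in R-Het mice, where R-Het 2 was the lowest of all 12 mice. The log2 fold change of -0.15 ± 0.16 (SE) became 0.035 without R-Het 2. Runx3 FPKM was 3.33, 3.62 and 2.43 against 3.39, 2.56 and 2.87, again with overlap (log2 fold change -0.06 ± 0.15 SE). Its sign depended on R-WT 2 and on R-Het 2, with values of 0.027 and 0.011 when each was left out.

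Cbfb FPKM was 104, 98.2 and 93.4 in R-WT mice and 108, 107 and 107 in R-Het mice. All R-Het mice were above all R-WT mice, by less than in the other cross (log2 fold change 0.12 ± 0.08 SE, adjusted p = 0.51, limma). No member was called, while 1.49% of the genes tested were lower and 0.398% higher in R-Het mice. For 1 of the 4 members R-Het mice were all above R-WT mice, against 10.7% of all genes, and for none were they all below, against 10.4%.

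Whether the changes differed between the crosses was tested with all 12 mice. The difference was largest in size for Runx2, at -0.49 ± 0.18 (SE; 95% confidence interval -0.89 to -0.09) on the log2 scale, and did not pass (adjusted p = 0.23, limma; unadjusted p = 0.022). For Runx3 it was -0.22 ± 0.19, for Cbfb 0.12 ± 0.09 and for Runx1 0.07 ± 0.19 (SE), with adjusted p of 0.587 or more (limma). The Cbfb and Runx1 values changed sign with rescaled values, to -0.0148 and -0.0509. No member was among the 0.153% of genes called in this test (12 below and 8 above 0, or 17 and 20 with rescaled values).

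**Figure D2:**
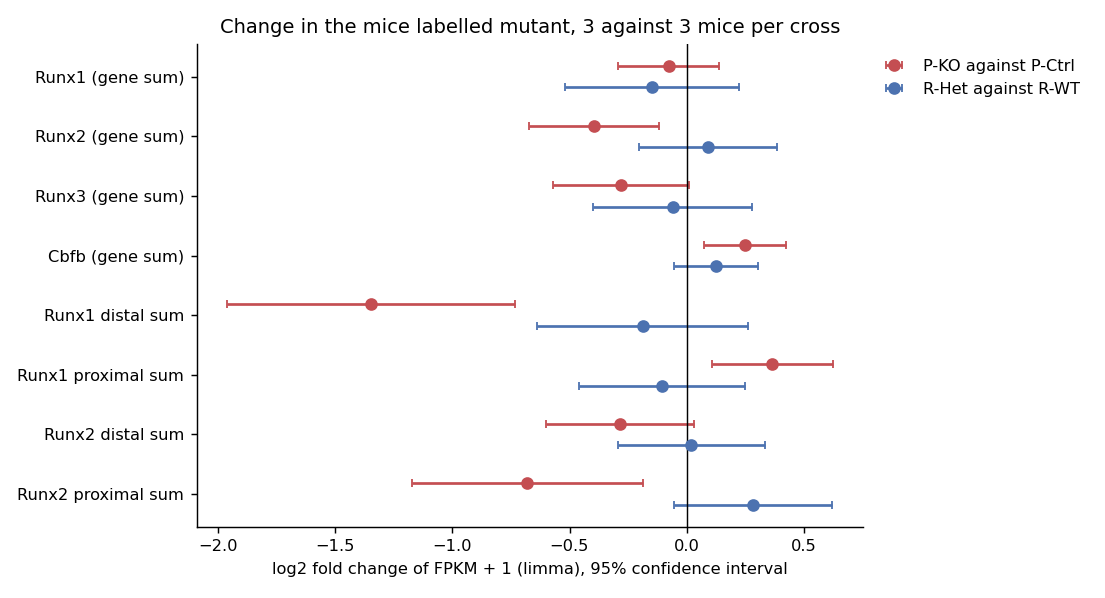
Log2 fold changes of FPKM + 1 (x axis) with 95% confidence intervals from limma for the 4 gene sums and for Runx1 and Runx2 summed by promoter (y axis), in P-KO against P-Ctrl (red) and R-Het against R-WT (blue), 3 mice a group. The lowest point is the Runx1 distal sum in P-KO mice at -1.35. That sum would meet the filter only through the P-Ctrl mice, so its interval is not read as a result. The promoter sums were formed after the values had been seen. The intervals of all R-Het points include 0.

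Because CBFB pairs with each RUNX protein, Cbfb was also set against the sum of the RUNX genes. The ratio of Cbfb to summed RUNX FPKM was 2.22, 2.18 and 2.58 in P-Ctrl mice and 3.75, 3.29 and 3.54 in P-KO mice. All P-KO ratios were above all P-Ctrl ratios, with means of 3.52 and 2.33 (exact two-sided permutation p = 0.1, the smallest that 3 against 3 mice allow). R-WT mice had ratios of 2.62, 2.03 and 2.62, and R-Het mice 2.45, 2.87 and 2.36, which overlapped. The ratio does not depend on how a library was scaled, and it is a ratio of RNA levels per length. Its RUNX sum includes the non-coding Runx2 entries NR_073392 and NR_073425, without which P-KO and P-Ctrl ratios overlapped.

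**Figure D3:**
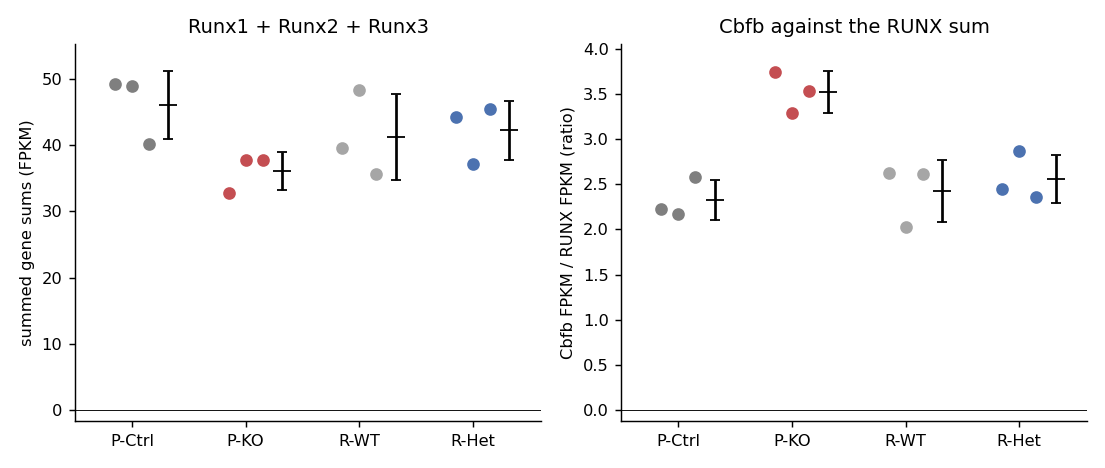
Left, summed FPKM of Runx1, Runx2 and Runx3; right, Cbfb FPKM divided by that sum (ratio), both on linear axes from 0, for each mouse (points) with mean ± SD of 3 mice (black). The 3 P-KO ratios lie between 3.29 and 3.75, above the other 9 mice, which lie between 2.03 and 2.87.

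At transcript level, 15 of the 17 transcripts reached 1 FPKM in at least 3 mice and were tested among 16458 transcripts; NM_001111022 of Runx1 and NM_001271631 of Runx2 did not. Transcripts of a gene share most of their bases, so their values are not independent of each other. No member transcript was called in either cross. Over all transcripts, 0.00% were called lower and 0.00% higher in P-KO mice by limma (2670 at an unadjusted p under 0.05, 4 lower and 4 higher with rescaled values), and 0.0486% lower and 0.0365% higher in R-Het mice (8 and 6 transcripts, or 66 and 15 with rescaled values).

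The 4 Runx1 transcripts split by promoter. NM_001111021 and NM_001111022 start at the distal promoter, and NM_001111023 and NM_009821 at the proximal promoter. The sum of the distal transcripts was 2.68, 2.33 and 2.52 FPKM in P-Ctrl mice, and 2e-06, 0.255 and 1.082 FPKM in P-KO mice. All P-KO mice were below all P-Ctrl mice. The proximal sum was 4.89, 5.02 and 4.14 FPKM in P-Ctrl mice and 6.39, 6.85 and 5.71 FPKM in P-KO mice, all above the controls. The distal share of Runx1 was thus 31.7% to 37.8% in P-Ctrl mice and 15.9% or less in P-KO mice (exact two-sided permutation p = 0.1, the smallest possible). The gene sums, given above, overlapped.

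Added to the fit across all genes as features of their own, the distal sum had a log2 fold change of -1.35 ± 0.26 (SE; adjusted p = 0.056, limma) and the proximal sum 0.37 ± 0.11 (SE; adjusted p = 0.13). Neither passed. The distal sum had an adjusted p of 0.015 (limma) when all 12 mice were in the fit. It reached 1 FPKM in 3 P-Ctrl, 1 P-KO, 1 R-WT and 0 R-Het mice. It would thus meet the filter only through the P-Ctrl mice, where it was high. The p-values of this sum and of its share are therefore not read as a result. With a pseudocount of 0.1 its log2 fold change was -2.91 (adjusted p = 0.11). The sums were formed after the values had been seen. In the other cross the distal sum was 1.18, 0.682 and 0.854 FPKM in R-WT mice and 0.928, 0.331 and 0.789 FPKM in R-Het mice, with overlap. The R-WT values were all below those of P-Ctrl mice too, and P-KO 3 lay within their range, so the control mice of both crosses did not share a level. In the matched GENCODE models, 2522 of 5861 bases of the distal form were not part of a proximal form.

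**Figure D4:**
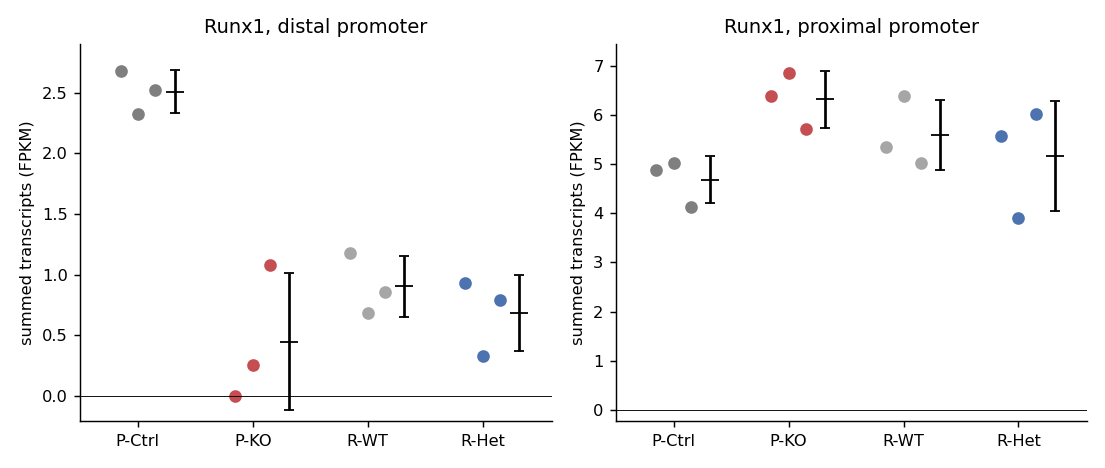
Summed FPKM of Runx1 transcripts from the distal promoter (left) and the proximal promoter (right) in each mouse (points) with mean ± SD of 3 mice (black), by labelled group. P-Ctrl mice (2.33 to 2.68 FPKM distal) lie above the mice of all other groups, which reach at most 1.18 FPKM.

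By transcript, NM_001111021 was at 1.98, 1.55 and 1.19 FPKM in P-Ctrl mice and at 2e-06, 0.173 and 0.730 FPKM in P-KO mice. It reached 1 FPKM in the 3 P-Ctrl mice and in no other mouse, so it passed the filter through the group where it was high, and no test is given for it. NM_001111023 was at 3.54, 2.96 and 2.16 FPKM against 5.73, 4.29 and 3.69 FPKM, without overlap and in the other direction (log2 fold change 0.52 ± 0.20 SE, adjusted p = 0.28, limma). NM_009821, the second proximal transcript, overlapped in this cross. In R-Het mice it was at 1.20, 2.11 and 1.93 FPKM, below the R-WT mice at 2.36, 3.21 and 3.55 FPKM (log2 fold change -0.56 ± 0.20 SE, adjusted p = 0.33).

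Of the 8 Runx2 transcripts, NM_001146038, NM_001271627, NM_009820 and NR_073392 start at the distal promoter and NM_001145920, NM_001271630, NM_001271631 and NR_073425 at the proximal promoter. The NR entries are non-coding in RefSeq, and their GENCODE matches are annotated as targets of nonsense-mediated decay. The 3 coding distal entries were matched to the same GENCODE transcript, as were NM_001145920 and NM_001271630, so the reference used here does not say how the entries within each set differ. Across the 12 mice the distal share of the Runx2 sum ran from 68.6% to 85.4%, and the distal transcripts were the larger part in each mouse. In the matched GENCODE models, 465 of 5898 bases of the distal form were not part of a proximal form. Of the proximal bases, 2480 of 7913 were not part of the distal form. The distal side of the split thus rests on a small part of the transcripts.

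The distal share was 68.6%, 81.6% and 74.6% in P-Ctrl mice and 79.1%, 85.4% and 78.1% in P-KO mice. These overlapped, with a difference of 5.89 percentage points (exact two-sided permutation p = 0.3). In the other cross it was 76.5%, 78.9% and 79.6% in R-WT mice and 79.0%, 71.9% and 72.6% in R-Het mice, a difference of -3.85 percentage points with overlap (exact two-sided permutation p = 0.3). The change in share did not pass a test of the difference between crosses (9.74 percentage points, exact two-sided permutation p = 0.06).

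In FPKM, the distal sum was 26.1, 31.0 and 22.8 in P-Ctrl mice and 18.8, 23.6 and 22.4 in P-KO mice, with overlap (log2 fold change -0.29 ± 0.14 SE, adjusted p = 0.27, limma). The proximal sum was 11.9, 6.97 and 7.77 FPKM in P-Ctrl mice and 4.97, 4.05 and 6.30 FPKM in P-KO mice, all below the controls. Its log2 fold change of -0.68 ± 0.21 (SE) did not pass (adjusted p = 0.13, limma), and it was -0.47 without P-Ctrl 1. In R-Het mice the proximal sum, at 7.21, 8.55 and 9.79 FPKM, overlapped R-WT mice at 6.99, 7.94 and 5.58 FPKM.

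The share of the distal transcript NM_001146038 was higher in the mutant mice of both crosses. It was 9.65%, 16.1% and 19.2% of the Runx2 sum in P-Ctrl mice and 20.8%, 39.0% and 32.8% in P-KO mice. It was 16.2%, 17.9% and 21.0% in R-WT mice and 28.9%, 29.0% and 23.5% in R-Het mice. The mutant mice lay above their controls in each cross, by 15.8 and 8.77 percentage points between the means. For each the exact two-sided permutation p was 0.1, the smallest possible with 3 against 3 mice, and 0.32 after adjustment over the 16 share tests. In FPKM the R-Het mice were also above the R-WT mice (9.92, 8.83 and 8.39 against 4.82, 6.75 and 5.74; log2 fold change 0.58 ± 0.14 SE, adjusted p = 0.17, limma). P-KO mice overlapped P-Ctrl mice in FPKM (4.93, 10.8 and 9.42 against 3.67, 6.12 and 5.87).

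The share of the proximal transcript NM_001145920 was 2.44%, 1.88% and 2.66% in R-WT mice and 4.79%, 6.12% and 8.81% in R-Het mice, without overlap. In FPKM the values were 0.728, 0.709 and 0.728 against 1.64, 1.86 and 3.15 (log2 fold change 0.87 ± 0.21 SE, adjusted p = 0.18, limma). P-Ctrl and P-KO mice overlapped for this transcript, at 1.12% to 4.04% and 2.69% to 3.66%.

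The NM_009820 share was lower in all R-Het mice, at 14.5%, 6.98% and 6.81% against 16.4%, 19.7% and 15.9% in R-WT mice, and overlapped in the other cross. NM_001271630 was lower as a share in P-KO mice (5.13%, 5.67% and 5.19%) than in P-Ctrl mice (21.5%, 5.73% and 11.1%), although P-KO 2 and P-Ctrl 2 were almost equal. NR_073392 FPKM was 12.8, 9.69 and 9.68 in P-Ctrl mice and 7.74, 1.99 and 7.20 in P-KO mice, without overlap (log2 fold change -0.96 ± 0.41 SE, adjusted p = 0.32, limma), while its share overlapped. NM_001271627, NM_001271631 and NR_073425 overlapped in both crosses, as shares and in FPKM.

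**Figure D5:**
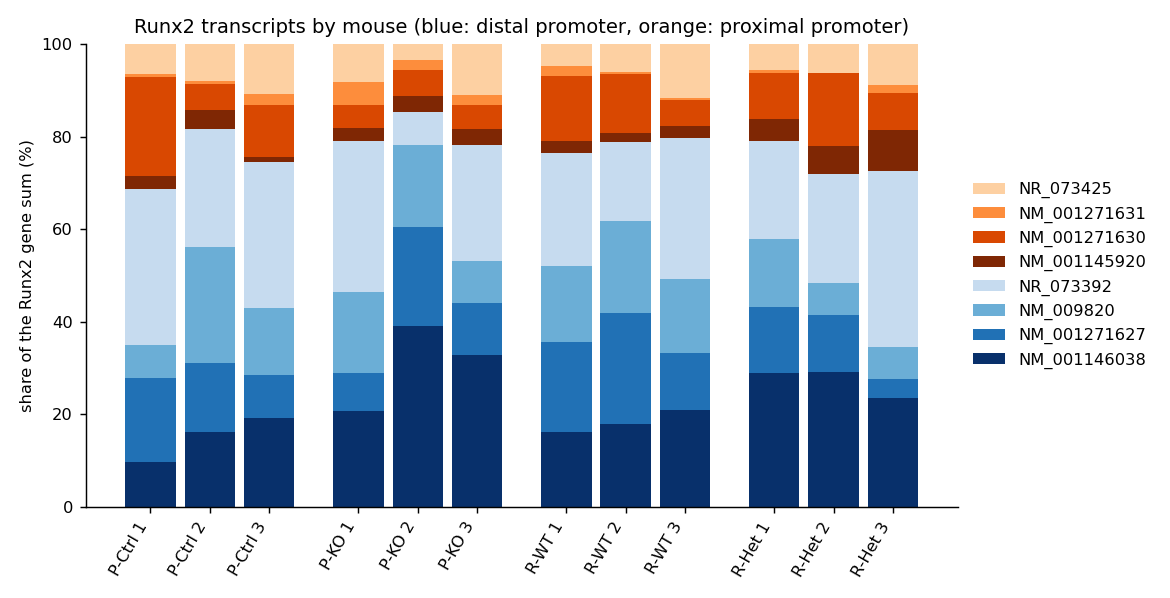
Share of each of the 8 Runx2 transcripts in the Runx2 gene sum (y axis, percent) in each of the 12 mice (x axis); blue shades are transcripts of the distal promoter and orange shades those of the proximal promoter. The darkest blue segment, NM_001146038, takes 20.8% to 39.0% in P-KO mice and 23.5% to 29.0% in R-Het mice, against 9.65% to 21.0% in the control mice of both crosses.

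Cbfb had 4 transcripts. They share the start of their coding sequence and then part, shown here because these points define the isoforms (gene at chr8:105170674-105217989, GRCm38, plus strand; the last 15 shared bases in lower case, the bases after that point in capitals).
NM_001161458: gggaggaaatggaggTGAGAGTTTCACAGC
NM_022309: gggaggaaatggaggCAAGAAGACAGCAAG
NM_001161456: gtcgctcggagatcgTATACTTGAAGGCTC
NM_001161457: gaggagcgagcccagGCAAGAAGACAGCAA
NM_001161458 and NM_022309 parted after 496 coding bases and had coding lengths of 546 and 561 bases. NM_001161456 and NM_001161457 parted from NM_001161458 earlier, after 166 and 399 coding bases.

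NM_001161458 and NM_022309 together carried most Cbfb signal. NM_001161458 was at 55.2, 60.2 and 66.7 FPKM in P-Ctrl mice and at 74.2, 64.9 and 77.9 FPKM in P-KO mice, with overlap. In R-Het mice it was at 53.7, 51.6 and 52.9 FPKM, above the R-WT mice at 48.3, 44.7 and 48.8 FPKM (log2 fold change 0.16 ± 0.07 SE, adjusted p = 0.46, limma). NM_022309 was at 44.6, 37.0 and 32.1 FPKM in P-Ctrl mice and 37.5, 53.6 and 53.3 FPKM in P-KO mice, and at 35.0 to 51.8 FPKM in the other cross, with overlap in both. The shares of these transcripts, 45.5% to 64.2% and 30.6% to 49.9% of the Cbfb sum, overlapped in both crosses. NM_001161456 and NM_001161457 stayed at 10.9 FPKM or less in every mouse and varied widely within groups, from 0.0840 to 5.57 FPKM for NM_001161456 among R-WT mice.

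Among the tested transcripts other than NM_001111021, P-KO mice were all below P-Ctrl mice for 3 of 14 (NM_001271630, NR_073392 and NM_019732) and all above for 1 (NM_001111023), against 6.93% and 16.2% of all transcripts tested. R-Het mice were all below R-WT mice for 1 of 15 (NM_009821) and all above for 3 (NM_001145920, NM_001146038 and NM_001161458), against 9.05% and 9.36%. Transcripts of a gene are not independent in these counts. NM_001111022, which was under the filter, was below the controls in both crosses.

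RUNX activity depends on other proteins, so partner genes were read from 3 lists by role. Of 15 coactivators and DNA-binding partners none was called in either cross, with median log2 fold changes of 0.04 in P-KO and 0.14 in R-Het mice against 0.06 and 0.02 over all genes. Dlx5, a homeobox activator of Runx2 and of osteoblast genes, was at 29.8, 43.8 and 33.8 FPKM in P-Ctrl mice and 20.7, 25.0 and 25.8 FPKM in P-KO mice (log2 fold change -0.56 ± 0.15 SE, adjusted p = 0.11, limma). Ets1, whose protein binds DNA together with RUNX1, was below the controls in all mutant mice of both crosses (log2 fold change -0.34 ± 0.09 and -0.25 ± 0.09 SE, adjusted p = 0.11 and 0.22). Smad1, which encodes a BMP signal transducer that binds RUNX proteins, was above P-Ctrl mice in all P-KO mice (log2 fold change 0.24 ± 0.09 SE, adjusted p = 0.17). Wwtr1, which encodes the coactivator TAZ, had a log2 fold change of 0.19 ± 0.08 (SE) in R-Het mice (adjusted p = 0.32).

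Of 21 corepressors and inhibitors, 2 were called lower and 0 higher in P-KO mice, where 0.559% and 1.01% of all genes were. In R-Het mice 1 was called lower and 2 higher, against 1.49% and 0.398% of all genes. By sign alone, 13 of the 21 were higher in P-KO mice and 14 in R-Het mice, against 8006 and 7326 of all 13059 genes. Hey1, a Notch target whose protein can bind and inhibit RUNX2, fell in both crosses. It was at 12.3, 13.9 and 12.6 FPKM in P-Ctrl mice and 5.81, 8.24 and 6.01 FPKM in P-KO mice (log2 fold change -0.87 ± 0.13 SE, adjusted p = 0.036, limma). It was at 13.3, 11.2 and 13.3 FPKM in R-WT mice and 8.67, 7.91 and 6.39 FPKM in R-Het mice (log2 fold change -0.65 ± 0.12 SE, adjusted p = 0.047).

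Tle2, a Groucho corepressor recruited by the carboxy-terminal end of RUNX proteins, was at 16.9, 16.8 and 14.4 FPKM in P-Ctrl mice and fell to 7.56, 9.40 and 8.86 FPKM in P-KO mice (log2 fold change -0.83 ± 0.11 SE, adjusted p = 0.027, limma). Twist2 and Msx2 rose in R-Het mice. Twist2, whose protein blocks RUNX2 in early osteoblasts, was at 13.8, 12.3 and 14.0 FPKM in R-WT mice and 22.7, 19.3 and 20.1 FPKM in R-Het mice (log2 fold change 0.59 ± 0.10 SE, adjusted p = 0.031). Msx2, a homeobox gene of the skull sutures, was at 9.60, 10.1 and 9.99 FPKM against 17.3, 14.4 and 13.4 FPKM (log2 fold change 0.55 ± 0.10 SE, adjusted p = 0.047). The medians of this list were 0.04 in both crosses. Each of these calls was lost in all 6 fits with a mouse left out, at adjusted p of 0.051 to 0.18, and in R-Het mice those of Hey1 and Msx2 were also lost with rescaled values.

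None of 6 genes for RUNX protein stability was called. Smurf1 and Wwp1, ubiquitin ligases that act on RUNX2, had log2 fold changes of -0.25 and 0.17 in P-KO mice (adjusted p = 0.19 and 0.30, limma). In R-Het mice the log2 fold changes of Wwp1, Stub1 and Smurf2 were 0.09, 0.17 and 0.039, with adjusted p of 0.62 to 0.91. The medians of this list were 0.07 and 0.02.

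RUNX2 target genes were represented by 20 genes, of which 18 passed the filter. In P-KO mice 17 of the 18 had a log2 fold change below 0, against 5053 of all 13059 genes. The median was -0.48 against 0.06 over all genes. Of the 18, 2 were called lower, against 0.559% of all genes: Bglap and Bglap2, the osteocalcin genes. Bglap was at 8757, 11663 and 8789 FPKM in P-Ctrl mice and 3364, 3156 and 1468 FPKM in P-KO mice (log2 fold change -1.95 ± 0.32 SE, adjusted p = 0.040, limma). Bglap2 fell by 1.77 ± 0.26 (SE) on the log2 scale (adjusted p = 0.033). Both are near-identical copies, so that their reads may be split unevenly. Of 6 fits with a mouse left out, Bglap passed in none and Bglap2 in 1. The sum of 6 osteoblast markers, which are all among these targets, was 16284 to 22311 FPKM in P-Ctrl mice and 6175 to 9903 FPKM in P-KO mice. Bglap is one of the 6 and made up a large part of the sum, so the sum partly restates its values. Of the 6 markers, 3 separated the groups. The part of osteoblast number in the Runx2 and target values was not tested.

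In R-Het mice 11 of the 18 targets had a log2 fold change below 0, against 5732 of all 13059 genes. The median was -0.05 against 0.02 over all genes, and 1 was called lower, against 1.49% of all genes. Mmp13, the collagenase of osteoblasts and hypertrophic cartilage, was at 1777, 1283 and 1585 FPKM in R-WT mice and 453, 295 and 383 FPKM in R-Het mice (log2 fold change -2.04 ± 0.18 SE, adjusted p = 0.0054, limma). The call held in 6 of 6 fits with a mouse left out. Runx2 itself was at 30.4 to 35.7 FPKM in the same R-Het mice. Mmp13 was not called in the other cross, but all P-KO mice (809, 501 and 288 FPKM) were below all P-Ctrl mice (1599, 1063 and 1656 FPKM). The difference between its changes in both crosses was 0.52 ± 0.45 (SE) on the log2 scale and did not pass (adjusted p = 0.64, limma).

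The surroundings of Runx2 were also examined, since R-Het mice carry an altered Runx2 allele. Of 46 genes annotated within 1 Mb of either end of Runx2 on chromosome 17, 17 were tested. All R-Het mice were below all R-WT mice for 5 of the 17 and above them for none, against 10.4% and 10.7% of all genes. All P-KO mice were below all P-Ctrl mice for 3 and above them for 2, against 7.68% and 19.6%. The 5 genes lower in R-Het mice were Cyp39a1, Enpp5, Cdc5l, Slc29a1 and Mymx. Of these, Cyp39a1 and Slc29a1 were also among the 3 lower in P-KO mice. Mymx was near the filter, with means of 1.05 FPKM in R-WT and 0.154 FPKM in R-Het mice. In the other cross its means were 0.253 FPKM in P-Ctrl and 1.07 FPKM in P-KO mice, with overlap. Skeletal muscle markers were also lower in R-Het mice, as given below. The part of muscle in the Mymx values was not tested. Slc29a1, a nucleoside transporter gene, fell in both crosses: from 118 ± 24.8 to 61.0 ± 3.94 FPKM in P-KO mice (adjusted p = 0.038, limma) and from 102 ± 3.86 to 76.1 ± 3.30 FPKM in R-Het mice (SD, n = 3 each; adjusted p = 0.047). Enpp5 fell in R-Het mice, from 12.9 ± 0.4999 to 8.43 ± 0.853 FPKM (adjusted p = 0.034), and overlapped in the other cross. With a mouse left out, the Slc29a1 call in P-KO mice held in 1 of 6 fits and those in R-Het mice in none.

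Supt3, whose first exons lie within Runx2 on the opposite strand, was at 9.51, 10.3 and 9.27 FPKM in P-Ctrl mice and 12.4, 11.98 and 13.2 FPKM in P-KO mice (log2 fold change 0.34 ± 0.09 SE, adjusted p = 0.095, limma). In the other cross it was at 10.5, 9.83 and 11.6 FPKM in R-WT mice and 9.47, 8.88 and 9.86 FPKM in R-Het mice, with overlap (log2 fold change -0.16 ± 0.09 SE, adjusted p = 0.47). The difference between crosses was 0.50 ± 0.11 (SE; adjusted p = 0.078). Whether the libraries kept strand is not given in the sources used here, so reads from the shared stretch cannot be told apart.

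Genes with profiles most like those of the members over the 12 mice are given as a description, ranked among 8533 genes with a mean of at least 5 FPKM. Runx2 was followed most closely by Pdgfrb, a receptor of mesenchymal and perivascular cells (Pearson r = 0.95), Col27a1 (0.94), a fibrillar collagen gene, and Npnt (0.93), a matrix protein gene, and these values stayed at 0.92 to 0.96 after group means were removed. Runx3 was followed by Arhgap31 (0.95), Ptpn13 (0.94) and Zcchc14 (0.91), and Runx1 by Etv6 (0.85), Plaur (0.81) and Gmeb2 (0.81). Cbfb was followed by Stt3b (0.94), Fam107b (0.93) and Dipk2a (0.92), of which Stt3b kept 0.41 after group means were removed. All points share library and depth.

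The tissue was checked with marker lists. Osteoblast markers were high in every mouse, with sums of 10115 to 16091 FPKM in R-WT mice and 7261 to 15451 FPKM in R-Het mice beside those of the P cross given above. Chondrocyte markers were at 22.5 to 73.4 FPKM in all mice, and 1 of 6 was called in P-KO mice. Skeletal muscle markers separated R-Het from R-WT mice in 6 of 6 genes, with sums of 15.8 to 121 and 1269 to 3763 FPKM, and ran from 14.0 to 945 FPKM in P-Ctrl mice and 420 to 2889 FPKM in P-KO mice. Osteoclast markers also separated the R groups in 6 of 6 genes, at 3311 to 4136 FPKM in R-Het mice and 5054 to 6333 FPKM in R-WT mice. For the cell types in which Runx1 and Runx3 are best known, T and NK cell markers summed to at most 3.26 FPKM in any mouse, with Cd3d and Cd8a under 0.1 FPKM in all mice. Sensory neuron markers were higher in P-KO mice (10.7 to 18.9 FPKM) than in P-Ctrl mice (6.02 to 8.17 FPKM), with Isl1 under 0.1 FPKM in all mice. The sums of macrophage, megakaryocyte, neutrophil and B cell markers overlapped between P-KO and P-Ctrl mice. In the other cross R-Het mice were below R-WT mice for B cell markers (1.79 to 2.77 against 3.48 to 4.54 FPKM) and macrophage markers (184 to 203 against 210.6 to 211.4 FPKM), and overlapped for megakaryocyte and neutrophil markers. The part of these cell types in the values of the RUNX genes and Cbfb was not tested.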

How the data were processed

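Calvarial RNA of 12 mice had been sequenced. Each mouse had a deposited table of FPKM by RefSeq accession, whose values summed to 891329 to 1068933 per mouse. The unit was inferred from the values. The submitters' processing notes name Bowtie 0.12.8 and mm10, and the program that calculated FPKM is not given in the sources used here. Transcripts were assigned to genes with the RefSeq gene table (29835) or GENCODE (180), and 396 stayed unnamed. Gene sums and transcripts were kept when 3 or more of the 12 mice reached 1 FPKM, and were compared on log2(FPKM + 1), a scale that understates changes of low values, with limma 3.58.1 (mean-variance trend, R 4.3.3), within each cross (6 mice) and, for the difference between crosses, over 12 mice, with Benjamini-Hochberg adjustment over all features. The scripts were tested on simulated data. Shares and ratios were compared by exact two-sided permutation tests. Transcripts were assigned to promoters by the start of their GENCODE match.

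Named genes were the members, Med23, called genes of each list (at most 6 by size of change) or else the 3 with the smallest p, the called genes near Runx2 with Supt3, and the 3 most correlated genes per member. Of the tested genes near Runx2 the others are counted, or named without a test. A few genes this rule names are not reported here. Members and lists were chosen with earlier results of these data known. The alternatives were another pseudocount (0.1), no filter, equal FPKM totals, all 12 mice in a fit, the replicate number as a block and each mouse left out in turn. Nothing in the labels ties a replicate number to a litter, so p-values measure the spread between mice.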

Additional observations from a re-analysis of the deposited data

Results flagged for a closer look

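Tle2, the Groucho corepressor gene, fell in P-KO mice, and the difference between its changes in the 2 crosses passed its test. P-KO mice (7.56, 9.40 and 8.86 FPKM) were all below P-Ctrl mice (16.9, 16.8 and 14.4 FPKM), with means that differed by -7.45 FPKM. R-Het mice (15.7, 12.2 and 12.6 FPKM) were all above R-WT mice (9.61, 12.2 and 10.7 FPKM), although R-Het 2 and R-WT 2 differed by very little, and this change was not called (log2 fold change 0.29 ± 0.12 SE, adjusted p = 0.32, limma). The difference between both changes was -1.12 ± 0.17 (SE) on the log2 scale (adjusted p = 0.036, limma), and 0.153% of all genes were called in this test. It passed in 4 of 12 fits with a mouse left out, with adjusted p of 0.015 to 0.10. Tle2 was named for its fall in P-KO mice, which is part of this difference. All R-WT mice were also below all P-Ctrl mice, so the control mice of both crosses did not share a Tle2 level.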

How the results depend on the processing

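The Runx1 distal sum in P-KO mice was called with all 12 mice in the fit (adjusted p = 0.015, limma) and under none of its other 10 alternatives (0.054 to 0.16). It would meet the filter only through the P-Ctrl mice, so this call is not read as a result. With a pseudocount of 0.1 its log2 fold change was -2.91. No member gene, member transcript or other promoter sum was called under any alternative run, and the lowest adjusted p was 0.053, for Cbfb with all 12 mice. Over the alternatives the P-KO log2 fold change of Runx2 ran from -0.50 to -0.32 and that of Cbfb from 0.15 to 0.27. Of 12 calls of named genes, Mmp13 held in all 6 fits with a mouse left out, Bglap2 and Slc29a1 in P-KO mice each held in 1 of 6, the Tle2 difference between crosses in 4 of 12, and the others in none. Without a filter on low values all 12 were lost, and the R-Het calls of Hey1, Msx2, Enpp5 and Slc29a1 were also lost with rescaled sums, with the block and with all 12 mice. Twist2 was lost with the block. Calls over all genes in P-KO mice went from 73 lower and 132 higher to 0 and 1 without a filter, 65 and 41 with rescaled sums, 92 and 181 with the replicate block and 190 and 527 with all 12 mice. In R-Het mice they went from 195 and 52 to 3 and 2, 163 and 39, 69 and 21, and 56 and 39. For the difference between crosses they went from 12 below and 8 above 0 to 6 and 0, 17 and 20, and 17 and 119 (filter, rescaling, block). Transcript calls in P-KO mice went from 0 and 0 to 0 and 1 (no filter), 4 and 4 (rescaled) and 75 and 186 (12 mice), and in R-Het mice from 8 and 6 to 1 and 0, 66 and 15, and 2 and 2 (block). The cause was not tested.

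The replicate numbers were checked for pairing by the correlation of deviations from group means over all genes tested. It was 0.18, 0.26 and 0.053 for numbers 1 to 3 in the P cross, where each mouse matched its own number best, and 0.0048, -0.047 and -0.084 in the R cross, where none did, so the numbers were not taken as pairs. With the replicate block the log2 fold change of Runx2 in P-KO mice was -0.40, no call of a member changed, and the adjusted p was 0.16 for Runx2 in P-KO mice (limma).

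Signs turned for the following values, none of which was called. With rescaled sums the difference between crosses was -0.0148 for Cbfb and -0.0509 for Runx1, NM_001161456 changed by -0.0270 in P-KO mice and NM_022309 by 0.011 in R-Het mice. With a pseudocount of 0.1, NM_001145920 changed by 0.010 and NM_001161456 by -0.0107 in P-KO mice. The P-KO difference of the NM_009820 share was 0.026 as log2, and the R-Het difference of the NM_001271630 share was -0.177 percentage points from group sums. With a mouse left out in turn, log2 fold changes in R-Het mice ran from -0.25 to 0.035 for Runx1, from -0.0032 to 0.22 for Runx2 and from -0.19 to 0.027 for Runx3 and its transcript NM_019732. They ran from -0.043 to 0.26 for NM_001111021, from -0.030 to 1.27 for NM_001161456, from -0.073 to 0.97 for NM_001161457, from -0.26 to 0.34 for NM_001271630, from -0.17 to 0.10 for NM_022309, from -0.021 to 0.40 for NR_073392, from -0.16 to 0.24 for NR_073425, from -0.082 to 0.12 for Smurf2, from -0.21 to 0.051 for the Runx1 proximal sum and from -0.063 to 0.15 for the Runx2 distal sum. In P-KO mice they ran from -0.30 to 0.16 for NM_001145920, from -0.59 to 0.55 for NM_001161456, from -0.66 to 0.092 for NM_009820 and from -0.31 to 0.24 for NM_009821, and the difference between crosses from -0.11 to 0.18 for Runx1. Share differences in percentage points ran in P-KO mice from -0.22 to 1.25 for NM_001145920, from -4.42 to 2.25 for NM_001271627, from -5.02 to 3.96 for NM_009820 and from -2.62 to 1.14 for NR_073425. In R-Het mice they ran from -2.29 to 1.996 for NM_001271630, from -0.70 to 0.33 for NM_001271631, from -1.69 to 6.77 for NR_073392 and from -1.86 to 1.60 for NR_073425.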
